A study of Mus musculus with 54 samples.

Results

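The cytosolic ribosomal protein genes were followed through the testes and ovaries of mice exposed to a mixture of pharmaceuticals, and through the gonads of their offspring. The members were all entries of the testis and ovary gene count tables whose symbol begins with Rpl or Rps followed by a number, with an optional a, x, y or l at the end, together with Rplp0, Rplp1, Rplp2 and Rpsa. Symbols of pseudogenes and of the Rps6k kinases were left out. This gave 82 of the 26264 entries, 50 of the large (60S) and 32 of the small (40S) subunit, and the naming rule itself refers to symbols and to no measured value.

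Ribosomes translate messenger RNA in every cell, and each subunit carries one copy of most of its proteins, so the genes are known to be expressed together. Many of their messenger RNAs begin with a run of pyrimidines, the 5′ terminal oligopyrimidine (TOP) motif, through which nutrient and growth signals adjust their translation. Ribosomal protein genes on the X chromosome are silenced with the rest of that chromosome in meiotic male germ cells. Autosomal copies of some of them, such as Rpl10l for Rpl10 and Rpl39l for Rpl39, are known in the mouse to be used in the testis and to be needed for male fertility.

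RNA was sequenced from 54 gonads or gonad samples in 18 groups of 3, labelled A, B and C, 9 groups of testes and 9 of ovaries. In the first generation (F1), dose 2 animals were exposed to 113 ng/L ibuprofen, 225 ng/L 2-hydroxyibuprofen, 112 ng/L diclofenac and 45 ng/L ethinyl-estradiol, a synthetic estrogen, through the drinking water. Dose 1 animals received 11.3 ng/L, 90 ng/L, 22.5 ng/L and 2.25 ng/L of the same 4 compounds, and F1 controls received diluted ethanol (0.001%). Exposure began at 8.5 days post-coitum through the pregnant dam and lasted until males were 10 weeks and females 8 weeks old. The second generation (F2) is labelled as untreated and differs in its parents, which were a dose 1 mother with a control father, a dose 2 mother with a control father, a dose 1 father with a control mother, a dose 2 father with a control mother, 2 dose 2 parents, or 2 control parents. The labels give an age of 10 weeks for all F2 testes and 8 weeks for all F2 ovaries, and no strain. Nothing in them says whether the 3 samples of a group came from separate litters, so the p-values measure the spread between these samples.

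Library totals were 31.8 to 46.4 M counts in testis (median 37.7 M; M stands for 1e6) and 35.6 to 102 M in ovary (median 43.8 M), and levels are given as CPM, the count of a gene per 1e6 counts of the library. The tissues carried their markers. All 8 elongating spermatid markers were above 1 CPM in every testis library and summed to 17034 to 28829 CPM there, against 73.7 to 94.4 CPM in ovary. All 8 granulosa cell markers were above 1 CPM in every ovary library and summed to 3093 to 6216 CPM, against 71.2 to 104 CPM in testis. Oviduct markers summed to 1170 CPM in ovary F1 dose 2 library A, 402 CPM in its library B and 164 CPM in F1 control library A, and to 29.1 to 49.4 CPM in the other 24 ovary libraries. In whole organs, fewer cells of a type and less RNA per cell cannot be told apart.

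The sequences below show why an autosomal copy and its X-linked parent can be counted apart, which the results on the paralogues turn on. The coding sequences of Rpl39l and Rpl39 are each 153 bases long, and 130 bases are identical. The 23 bases that differ are in capitals, and the longest identical stretch is 38 bases, shorter than the 100-base reads. Rpl39l is a coding sequence in one exon at chr16:10174310-10174462 on the plus strand. That of Rpl39 is spliced within chrX:37082704-37085127 on the minus strand (GENCODE M21, GRCm38).
Rpl39l: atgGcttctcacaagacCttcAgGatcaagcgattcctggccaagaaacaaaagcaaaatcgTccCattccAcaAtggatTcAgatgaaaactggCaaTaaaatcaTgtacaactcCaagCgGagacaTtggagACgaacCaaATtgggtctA
Rpl39: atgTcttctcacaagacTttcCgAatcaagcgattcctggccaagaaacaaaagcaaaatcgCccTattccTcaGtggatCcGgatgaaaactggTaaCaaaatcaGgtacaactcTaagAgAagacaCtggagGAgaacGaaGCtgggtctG

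Rpl10l and Rpl10 have coding sequences of 642 bases, of which 544 are identical (84.7%) and 98 differ, with a longest identical stretch of 23 bases. Copies elsewhere in the genome are a larger limit for other members. Of 80 members with an annotated transcript, 71 had at least 1 stretch of 100 bases in common with a transcript of another gene, and the median member shared 41.4% of its stretches. None of the stretches of Rpl10l, Rpl39l, Rps27l or Rpl3l was shared, against 1.75% for Rpl39, 34.8% for Rps4x and 91.6% for Rpl10, whose copies include the pseudogene Rpl10-ps3. Values of Rpl10 and of other members with shared stretches are therefore uncertain as to their copies. The extreme was Rps27 at 98.4%, shared with Rps27rt, which was listed at 0 counts in every library.

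The 30 bases around the RefSeq start of transcription, 15 on either side, are shown for 6 members (RefSeq, GRCm38.p6). The longest pyrimidine (C or T) run is in capitals, wherever in the window it lies. Such a run at the start itself is the hallmark of the TOP genes. The members shown are the parents and copies of these pairs, Rpl4, which differed in F1 dose 2 testes, and, with the longest run of those printed, Rpl35. Positions are chr12:66284387-66284416 minus for Rpl10l, chrX:74270801-74270830 plus for Rpl10, chr16:10170213-10170242 plus for Rpl39l, chrX:37085208-37085237 minus for Rpl39, chr9:64173372-64173401 plus for Rpl4 and chr2:39005117-39005146 minus for Rpl35.
Rpl10l: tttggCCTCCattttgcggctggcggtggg
Rpl10: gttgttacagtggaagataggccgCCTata
Rpl39l: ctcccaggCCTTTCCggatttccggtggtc
Rpl39: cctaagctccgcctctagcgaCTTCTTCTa
Rpl4: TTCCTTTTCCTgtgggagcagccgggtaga
Rpl35: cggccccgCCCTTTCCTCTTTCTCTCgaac

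The longest run was 5 bases in Rpl10l, 3 in Rpl10, 7 in Rpl39l, 8 in Rpl39, 11 in Rpl4 and 18 in Rpl35. It lay wholly before the start in Rpl10l, Rpl39l and Rpl4 and wholly after it in Rpl10 and Rpl39. Only the run of Rpl35 spanned the start, so the other runs are not TOP motifs at this start. RefSeq windows were matched for 61 of the 82 members. A run of at least 6 pyrimidines on the gene's own strand, within 15 bases of the start on either side, was found in 35 of these 61 (57.4%), against 7860 of 27025 genes (29.1%). On the opposite strand such a run was found in 4 members (6.56%), against 8671 genes (32.1%). The letters AAGATGGC, the core recognised by the factor YY1, were found on either strand of the 300-base window in 4 members (6.56%), against 778 genes (2.88%). TATAAA in the 50 bases before the start was found in 0 of 61 members, against 779 genes (2.88%). These matches describe letters in a window only.

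The members took up a larger share of the ovary libraries than of the testis libraries. They summed to 0.809% to 1.57% of all counts in testis (median 0.995%) and to 2.91% to 6.61% in ovary (median 3.76%). The median member averaged 122 CPM over the 27 testis libraries, with 55 of 82 members at 100 CPM or more and 5 under 10 CPM. In ovary the median member averaged 470 CPM, with 73 members at 100 CPM or more and 6 under 10 CPM.

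In testis the 5 members with the highest mean CPM were Rplp0 at 660 CPM, Rps24 at 342 CPM, Rpl41 at 331 CPM, Rpl13 at 308 CPM and Rps7 at 302 CPM. The 5 lowest were Rpl36a at 9.36 CPM, Rpl39 at 8.45 CPM, Rps27 at 0.691 CPM, Rpl3l at 0.423 CPM and Rpl32l at 0.254 CPM. Divided by transcript length, the highest were Rpl41 at 757 CPM per kb and Rplp0, the scaffold of the ribosomal stalk, at 486 CPM per kb, against a median of 162 CPM per kb over 80 members. The 4 X-linked members lay near the bottom on that scale, with 40.1 CPM per kb for Rpl10, 19.4 for Rpl36a, 18.9 for Rps4x and 13.8 for Rpl39. They ranked 75th to 78th of 80.

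In ovary the highest mean CPM values were those of Rplp0 at 1369 CPM, Rpl4 at 1285 CPM, Rpsa at 1280 CPM, Rps2 at 1187 CPM and Rpl3 at 1068 CPM. The lowest were Rps27 at 1.77 CPM, Rpl39l at 0.607 CPM, Rpl10l at 0.336 CPM, Rpl32l at 0.0701 CPM and Rpl3l at 0.0642 CPM. Per kb, Rpl23a led at 1501 CPM per kb and Rpl41, the smallest ribosomal protein, followed at 1498 CPM per kb. The median was 647 CPM per kb, and Rpl10 stood at 1123 CPM per kb. The stalk proteins Rplp1 and Rplp2, which recruit translation factors, averaged 260 and 181 CPM per kb in testis and 1193 and 887 CPM per kb in ovary. Rps27a, which encodes a ribosomal protein fused to ubiquitin, averaged 186 CPM per kb in testis and 789 in ovary, and Rpsa, also known as a laminin receptor, averaged 123 CPM per kb in testis and 800 in ovary.

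Zero counts were confined to 2 members in ovary, where Rpl32l had none in 6 of 27 libraries and Rpl3l, the muscle paralogue of Rpl3, had none in 3. The summed CPM of large subunit members was 1.54 to 1.78 times that of small subunit members in testis (median 1.71) and 1.59 to 1.70 times in ovary (median 1.66). The balance of the subunits thus covered overlapping ranges in the 2 tissues while the summed level did not.

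Testis and ovary of unexposed animals were compared with 6 libraries each, the F1 controls and the F2 animals of control parents. Of 81 members tested, 68 passed an adjusted p of 0.05 (edgeR's quasi-likelihood test, Benjamini-Hochberg adjusted over all 19176 genes), 4 higher and 64 lower in testis. Of all genes tested, 90.1% passed, so the members' 84% is no larger than the background. By direction, 4.94% of members were higher, against 45.1% of all genes, and 79% were lower, against 45% of all genes. Their median log2 fold change was -1.36, against -0.01 over all genes. With RLE or DESeq2 scaling the median of all genes was 0.27 and that of the members -1.08. Sex, organ and age (10 weeks against 8 weeks) change together in this comparison and cannot be told apart.

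The 4 that were higher in testis were all paralogues. Rpl10l had 120 to 153 CPM in the 6 testis libraries (median 139 CPM), against 0.285 to 0.637 CPM in ovary (median 0.499 CPM). Rpl39l had 139 to 299 CPM in testis (median 175 CPM), against 0.493 to 1.03 CPM in ovary (median 0.634 CPM). The groups were far from overlapping for both genes. The log2 fold changes were 8.75 ± 0.19 for Rpl10l (SE, adjusted p = 1.9e-14, edgeR) and 8.68 ± 0.20 for Rpl39l (adjusted p = 3.9e-14). Rps4l, a mouse copy of Rps4x, had 67.3 to 85.4 CPM in testis and 5.25 to 21.6 CPM in ovary, a log2 fold change of 3.54 ± 0.29. Rpl3l had 0.280 to 0.707 CPM in testis and 0.0181 to 0.144 CPM in ovary, and its fitted log2 fold change of 3.71 ± 0.49 rests on few counts.

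The X-linked members made up the lower end. Rps4x, a small subunit protein, had 18.6 to 22.1 CPM in testis (median 20.6 CPM), against 687 to 1400 CPM in ovary (median 802 CPM). Its log2 fold change was -4.87 ± 0.19 (adjusted p = 8.4e-12, edgeR). Rpl10, which is needed for the joining of the subunits, had 33.8 to 38.4 CPM in testis (median 36.8 CPM), against 739 to 1356 CPM in ovary (median 856 CPM). Its log2 fold change was -4.12 ± 0.16 (adjusted p = 8.1e-12, edgeR). The tissues did not overlap for either gene. Rpl36a differed by -3.66 ± 0.22 and Rpl39, a small protein that lines the exit tunnel, by -3.41 ± 0.22 on the log2 scale.

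The 4 X-linked members had a median log2 fold change of -3.89, from -4.87 to -3.41, and the 77 autosomal members tested had a median of -1.26, from -2.66 to 8.75. The lowest autosomal value lay above the highest X-linked one. Other large decreases were those of Rps3, which lines the mRNA entry channel, at -2.66, Rpl10a at -2.65, Rpl3, near the peptidyl transferase centre, at -2.58, and Rpl14 and Rps19 at -2.49 each. Rplp0 fell by 0.48, Rplp1 by 1.52, Rplp2 by 1.75, Rps27a by 1.55 and Rps27 by 0.63 on the log2 scale. Rpsa averaged 215 ± 17.6 CPM in testis and 1353 ± 417 CPM in ovary (SD, n = 6 each). Rps27l, a paralogue of Rps27 that p53 is known to induce, did not pass, with 41.9 ± 18.6 CPM in testis and 62.2 ± 17.4 CPM in ovary (SD, n = 6 each) and an adjusted p of 0.583 (edgeR).

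Within testis Rpl10l and Rpl39l outweighed their parents in every library. Rpl10l averaged 126 CPM per kb, against 40.1 CPM per kb for Rpl10, and Rpl39l averaged 316 CPM per kb, against 13.8 CPM per kb for Rpl39. Of the counts of each pair, Rpl10l took 75.7% to 84.1% over the 27 testis libraries and Rpl39l 93.7% to 96.3%. In ovary Rpl10l took 0.0158% to 0.0861% and Rpl39l 0.251% to 0.768%. Neither share overlapped between the tissues. Rps4l took 74.0% to 86.6% of the Rps4l and Rps4x counts in testis and 0.558% to 1.90% in ovary. Rps27l took 96.5% to 98.8% of its pair with Rps27 in testis and 96.1% to 98.1% in ovary. The remaining pairs had lower shares, and Rpl3l took 0.118% to 0.606% of its pair with Rpl3 in testis and at most 0.0178% in ovary, and Rpl32l 0.0219% to 0.744% of its pair with Rpl32 in testis and at most 0.0518% in ovary. These shares are of counts and not per length, and no transcript length was used for Rps4l. Of the stretches compared above, 98.4% were shared with other transcripts for Rps27 and 91.6% for Rpl10, but 1.75% for Rpl39. For Rps27l and Rpl10l it was 0%. Loss of reads from shared stretches would lower a parent's count and raise its copy's share, which was not tested. The Rps27l and Rpl10l shares, and the per-kb lead of Rpl10l, are therefore uncertain as measures of which copy is used.

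**Figure D1:**
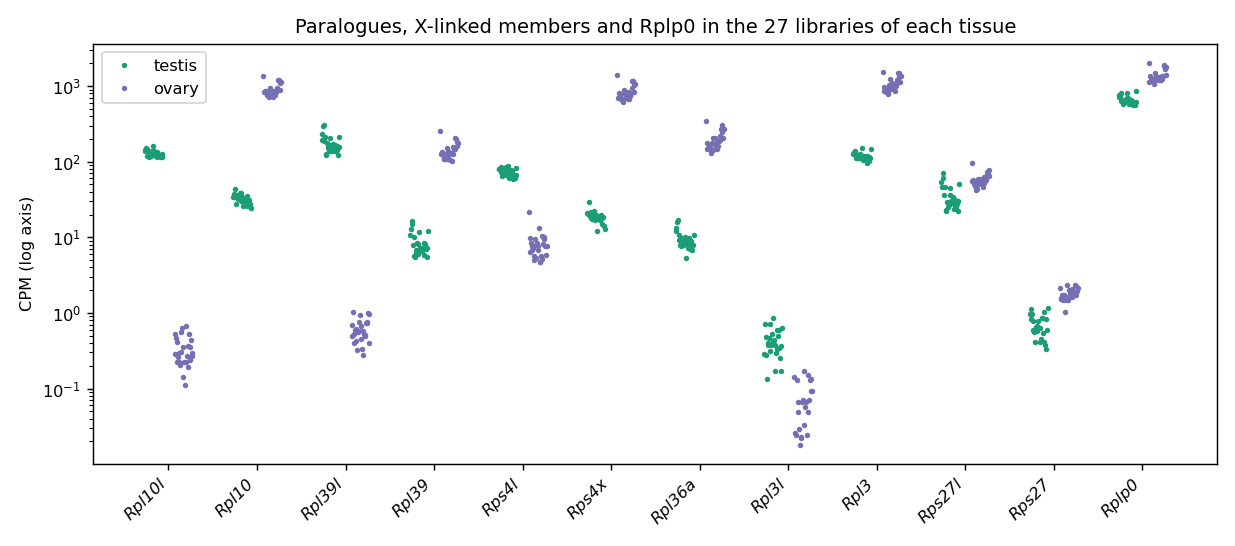
CPM (log axis) of the paralogue pairs, of the X-linked Rpl36a and of Rplp0 in the 27 testis and 27 ovary libraries, 1 point per library. Rpl10l and Rpl39l lie above their parents in every testis library and below them in every ovary library. Zero values cannot be drawn on this axis and are left out (Rpl3l was at 0 in 3 of 27 ovary libraries).

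Across the 27 testis libraries, 79 members averaged at least 1 CPM, and their median pairwise correlation of log2 levels was 0.792. In ovary, 78 members had a median of 0.966. These libraries share groups and depths, and the values are descriptions. Members so correlated are not independent, so counts of members on one side of the controls below partly repeat the same libraries. The median member correlated with the sum of the others at 0.912 in testis and 0.984 in ovary. Members that followed the others least were Rpl26, at 0.206 in testis and 0.223 in ovary, and in testis Rpl10 at 0.457, Rpl4 at 0.539 and Rps4x at 0.582. All 4 but Rpl26 passed a testis comparison described below.

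The summed level of the members moved with spermatid markers. Over the 27 testis libraries it correlated at 0.931 with the sum of the 8 elongating spermatid markers and at 0.862 with that of the 8 round spermatid markers, against -0.259 for the 8 spermatocyte markers (Pearson's r on the log2 scale; Spearman's rho was 0.890, 0.828 and -0.49). In ovary the correlation with the 8 oocyte markers was 0.613 and with the 8 granulosa markers 0.366. Sums within a library share its total, and the part of cell composition in the results below was not tested.

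Of 16296 genes compared over the 27 testis libraries, those whose pattern was most like that of Rpl39l were AA467197 (r = 0.983), Atp5l (0.978) and Gm9999 (0.974). The genes most like Rpl10l were Tmem89 and Sdhb (0.864 each) and Ndufs7 (0.860).

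**Figure D2:**
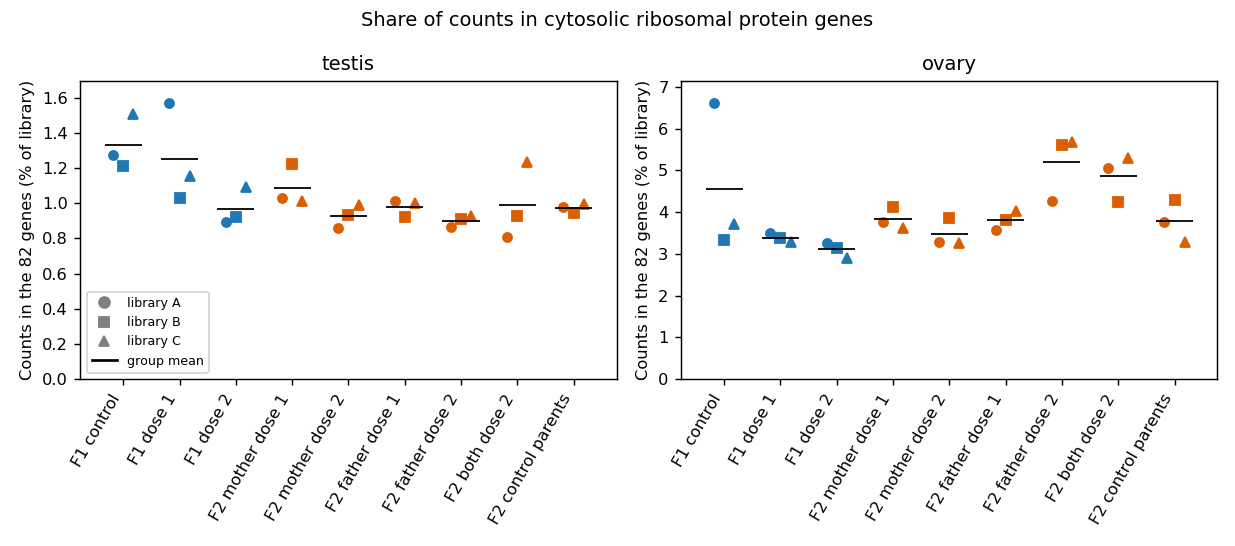
Summed counts of the members as a percentage of all counts in each library, by group, with group means, in testis and ovary. F1 dose 2 testes sit at 0.894% to 1.09%, below the F1 controls at 1.21% to 1.51%. F2 testes with control parents sit at 0.945% to 0.995%, and ovary F1 control library A stands apart at 6.61%.

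F1 testes exposed to dose 2 had lower ribosomal protein transcripts than F1 control testes across most of the list. Their members summed to 0.969 ± 0.107% of counts, against 1.33 ± 0.157% in controls (SD, n = 3 each), and the ranges of the 2 groups did not overlap. Unexposed F2 testes with control parents summed to 0.974 ± 0.0258% (SD, n = 3), within the range of the dose 2 testes. F1 controls were not tested against these F2 testes. Of 81 members tested against F1 controls, 78 had a negative log2 fold change, with a median of -0.47, against 0.01 over all genes. In 60 members (74.1%) every dose 2 library lay below every control library, against 15.6% of all genes, and in 0 members every dose 2 library lay above, against 20.1% of all genes. Only 3 members passed the adjusted threshold, all lower, which is 3.7% of members, against 2.21% of all genes (1.64% lower).

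Rpl4, whose protein reaches into the exit tunnel of the large subunit, had 179, 175 and 189 CPM in dose 2 testes, against 256, 252 and 303 CPM in controls. All dose 2 values were below all control values. The log2 fold change was -0.61 ± 0.11 (SE, adjusted p = 0.0287, edgeR). Rps27l had 23.3, 22.3 and 29.4 CPM in dose 2 testes, against 54.01, 46.4 and 71.2 CPM in controls. These groups were also apart, and control library C was the highest. The log2 fold change was -1.23 ± 0.23 (adjusted p = 0.0449, edgeR). Rpl39 had 5.74, 5.53 and 6.73 CPM in dose 2 testes, against 10.9, 13.1 and 16.3 CPM in controls, again without overlap. Its log2 fold change was -1.20 ± 0.25 (adjusted p = 0.0461, edgeR).

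The counts of calls depended on the fit. With each of the 6 libraries left out in turn, 0 or 1 member passed. These counts were not set against the share of all genes passing in the same fits. Whether the drop is particular to the members was not tested. With only the 6 libraries compared 37 members (45.7%) passed, against 11.4% of all genes in the same fit. With DESeq2 35 passed (43.2%), against 10.1% of all genes, and with all 27 testis libraries in the fit 25 of 82 (30.5%), against 6.76%. All 3 genes named were among each of the last 3 sets.

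The paralogues and stalk genes that did not pass in F1 dose 2 testes had these values. Rpl39l averaged 141 ± 29.6 CPM in dose 2 testes and 243 ± 52.7 CPM in controls (adjusted p = 0.106, edgeR), and Rpl10l averaged 123 ± 10.3 CPM and 145 ± 7.16 CPM (adjusted p = 0.148; SD, n = 3 each). Rpl10 differed by -0.14 ± 0.14 and Rps4x by -0.25 ± 0.15 on the log2 scale. Among stalk genes the log2 fold change was -0.33 for Rplp0, -0.64 for Rplp1 and -0.02 for Rplp2. Rplp2 was thus the one stalk gene whose groups overlapped. The median was -0.38 for the 49 large subunit members and -0.56 for the 32 small subunit members.

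Spermatid markers were lower in the same libraries. Elongating spermatid markers summed to 20119 to 21789 CPM in dose 2 testes and 22273 to 28330 CPM in controls, with all 8 markers above 1 CPM in every library. Round spermatid markers summed to 2505 to 2754 CPM and 2854 to 3132 CPM. Their part in the result was not tested.

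Lists of other genes, most of them of the translation machinery, were set beside the members in F1 dose 2 testes. Of all genes tested there 2.21% passed and 1.64% passed as lower, and no count of these lists was tested against those shares. Of 78 mitochondrial ribosomal protein genes 3 passed as lower and 0 as higher, with a median log2 fold change of -0.22. None of 46 ribosome biogenesis genes, 19 other genes of the TOP class or 19 other initiation factors passed, with medians of 0.04, -0.02 and 0.00. The TOP class list holds translation factors and also genes of other functions, such as Vim and Hnrnpa1. Of 7 tested cytosolic ribosomal genes that the naming rule missed, 1 passed, Rpl22l1, a paralogue of Rpl22, at -1.36 ± 0.26 (adjusted p = 0.0449, edgeR). The median of the 7 was -0.40.

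In F1 dose 1 testes no member passed (0.0317% of all genes did), 2 had an unadjusted p under 0.05 (2.47%, against 8.55% of all genes), and the median log2 fold change was -0.08. The median was -0.31 without dose 1 library A and 0.06 without dose 1 library B. DESeq2 called 0 members, against 0.724% of all genes. In 2 of 81 members (2.47%) the dose 1 libraries were all lower than the controls, against 7% of all genes, and in 0 they were all higher, against 5.91%. The smallest p belonged to Rps2, a protein of the mRNA entry channel, with 228, 153 and 164 CPM in dose 1 testes, against 264, 255 and 267 CPM in controls (-0.52 ± 0.14, adjusted p = 0.381, edgeR). Rpl4 followed at -0.34 and Rpl13 at -0.24. Library A of this group had the highest share of member counts of any testis library (1.57%) and was the highest of the 3 in 79 of 81 members. Without it 2 members passed (2.47%), against 1.64% of all genes.

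Between the doses, F1 testes of dose 2 had 75 of 81 members lower than those of dose 1, with a median of -0.37, and 0 passed (0.227% of all genes did), while 39 (48.1%) had an unadjusted p under 0.05, against 20.3% of all genes. DESeq2 called 18 (22.2%), against 6.69% of all genes. Without dose 1 library A the median was -0.18. In 23 members (28.4%) the dose 2 libraries were all lower, against 10.9% of all genes, and in 0 all higher, against 14.6%. The smallest p were those of Rps27l (-0.97, adjusted p = 0.104, edgeR), Rps15a (-0.96, adjusted p = 0.110) and Rpl15 (-0.41, adjusted p = 0.111). The 3 F1 testis comparisons use the same 9 libraries, and each pair of them shares a group.

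**Figure D3:**
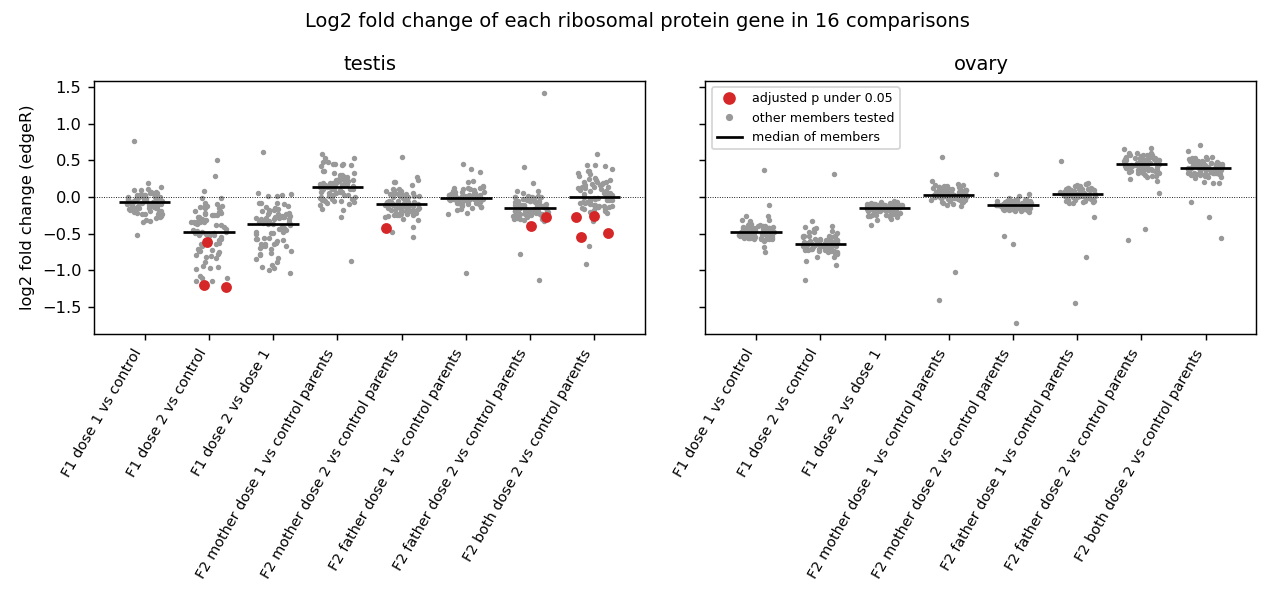
Log2 fold changes of the members in each of the 16 comparisons within a tissue, 1 point per member, with the median. Medians run from -0.64 in ovaries of F1 dose 2 to 0.45 in ovaries of F2 with a dose 2 father, and the members passing the threshold were all in testis.

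In F2 testes the median log2 fold change of the list lay between -0.15 and 0.13, and few members passed. Rpl10 was lower in offspring of a dose 2 mother, a dose 2 father and 2 dose 2 parents. The 5 comparisons share the same 3 control libraries, so their likeness is in part that of the controls.

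Offspring of 2 dose 2 parents had 4 of 82 members lower and 0 higher (4.88%), against 4.59% of all genes called and 2.81% called lower. A share of this size is near the background. Rpl10 had 27.6, 27.7 and 24.2 CPM in their testes, against 36.0, 38.4 and 38.2 CPM in offspring of control parents. The groups did not overlap, and the log2 fold change was -0.49 ± 0.08 (adjusted p = 0.00317, edgeR). Rps4x had 14.2, 14.2 and 12.9 CPM, against 18.6, 22.1 and 19.9 CPM. It was also without overlap, at -0.54 ± 0.13 (adjusted p = 0.0229, edgeR). Rpl28 had 96.1, 101 and 99.2 CPM, against 122, 111 and 122 CPM, at -0.26 ± 0.07 (adjusted p = 0.0425, edgeR). In these 3 every exposed-parent library was below every control library.

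Rpl10 kept its call under every setting tried except the fit of only the 6 libraries compared (adjusted p = 0.0766, edgeR, of a range from 2.54e-06 to 0.0766). Rps4x lost its call in 4 of 12 alternatives and Rpl28 in 9.

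The median of all 82 members was 0.00 in this comparison, with 41 on either side of zero, and 6 members (7.32%) lay wholly below the controls, against 12.5% of all genes, and 1 (1.22%) wholly above, against 7.12%. Library C of this group was the highest of the 3 in 77 members, with 1.24% of its counts in the members, against 0.809% and 0.929% in the other libraries. It also had the highest spermatid markers, with elongating markers at 23200 CPM, against 18356 and 19406 CPM. Without library C the median was -0.19, and without library A it was 0.19. Rpl10l averaged 119 ± 7.64 CPM in this group and 129 ± 10.3 CPM in offspring of control parents (SD, n = 3 each), Rpl39l 164 ± 44.4 CPM and 149 ± 8.34 CPM, and neither passed.

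Offspring of a dose 2 mother had 1 member lower and 0 higher of 82, against 1.7% of all genes called and 0.899% called lower. This was Rpl10, with 26.1, 29.2 and 28.4 CPM in their testes, all below the 36.0, 38.4 and 38.2 CPM of offspring of control parents (-0.43 ± 0.08, adjusted p = 0.0128, edgeR). Without library C of the control parents the adjusted p was 0.0702 and 0 members passed, and without library B 6 passed, against 9.26% of all genes. In 13 members (15.9%) all libraries were below the controls, against 11.7% of all genes, and in 1 (1.22%) above, against 9.71%. The median was -0.10, and -0.05 without library C of the control parents.

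Offspring of a dose 2 father had 2 members lower and 0 higher, against 5.33% of all genes called and 2.39% called lower. Rpl10 had 26.0, 29.8 and 31.0 CPM (-0.40 ± 0.08, adjusted p = 0.0124, edgeR), all below the control values given above. It lost its call in 3 leave-one-out fits, and 0 to 7 members passed in such fits. The 7 passed without library B of the control parents (8.54%), against 16.1% of all genes. In 26 members (31.7%) every library was below every control library, against 12.4% of all genes, and in 2 (2.44%) above, against 16.1%. The median was -0.15. Of the mitochondrial ribosomal protein genes 4 passed as lower, a count that was not tested against the 2.39% of all genes called lower.

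No member passed in offspring of dose 1 parents. With a dose 1 mother (0.816% of all genes passed) 10 members (12.2%) had an unadjusted p under 0.05, against 17.9% of all genes. DESeq2 called 1, against 3.38% of all genes, and the median was 0.13 (0.05 without library B of that group). In 22 members (26.8%) every library was above the controls, against 12.2% of all genes, and in 2 (2.44%) below, against 13.3%. Rpl10 had the smallest p (30.2, 33.7 and 30.0 CPM, -0.27, adjusted p = 0.109, edgeR), followed by Rps2 at 0.44 and Rpl4 at 0.30. With a dose 1 father (3.97% of all genes passed) 4 members (4.88%) had an unadjusted p under 0.05, against 18.4% of all genes. DESeq2 called 0, against 6.66% of all genes, and the median was -0.01 (0.02 without library B of that group). In 3 members (3.66%) every library was below the controls, against 10.2% of all genes, and in another 3 above, against 12.5%. Rpl10 was among those with the smallest p at -0.22 (adjusted p = 0.134, edgeR), as was Rpl30 at 0.45.

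Over the 6 F2 testis groups Rpl10 was thus highest with control parents, and the 15 values of the 5 other groups lay between 24.2 and 35.1 CPM, below all 3 control values. Leydig cell markers had the same order, summing to 839 to 1431 CPM in the 5 groups and 1452 to 1585 CPM with control parents, with all 8 markers above 1 CPM. Their part in the Rpl10 values was not tested.

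**Figure D4:**
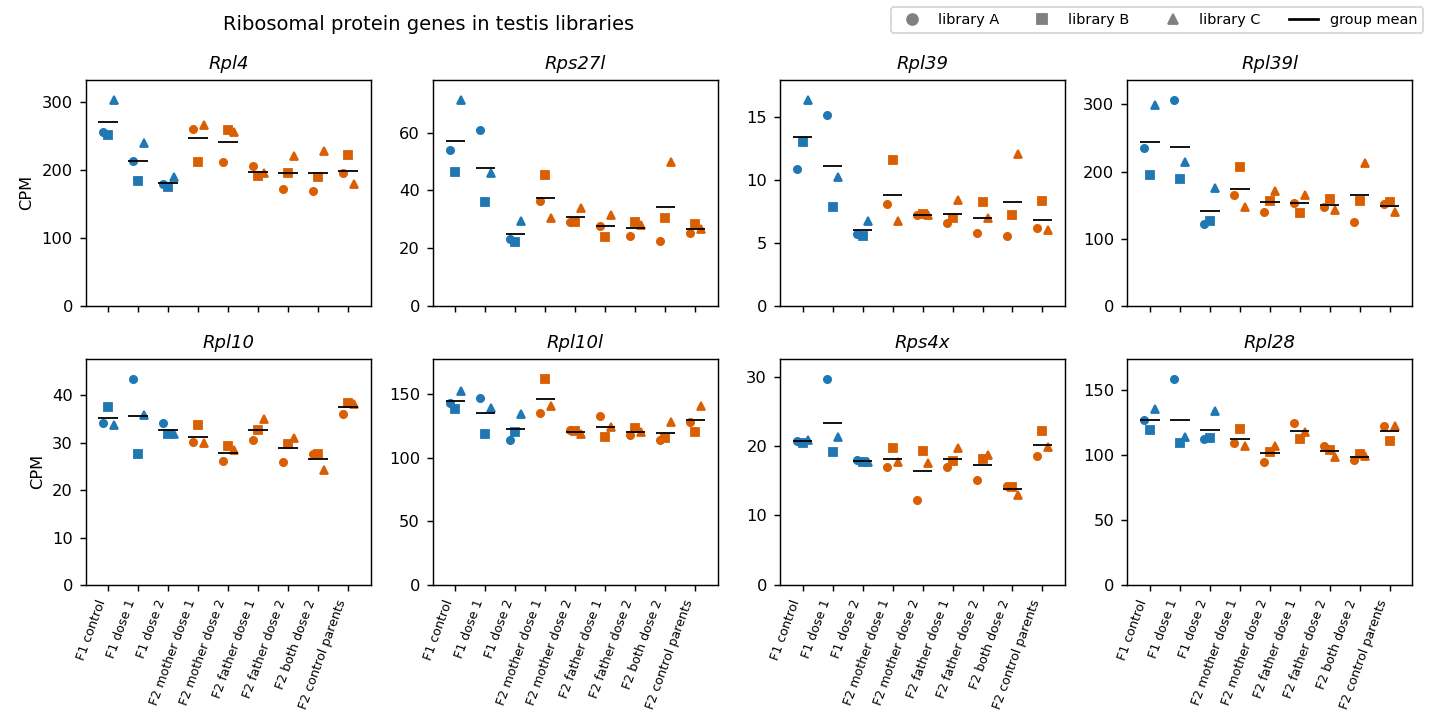
CPM in testis of 6 of the members that passed a comparison and of the copies Rpl39l and Rpl10l, by group and library, with group means. Rpl10 lies at 36.0 to 38.4 CPM in offspring of control parents and at 24.2 to 35.1 CPM in the other F2 groups, and Rpl4, Rps27l and Rpl39 lie lower in F1 dose 2 than in F1 control testes.

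In ovaries no member passed in any of the 8 comparisons within the tissue, while at least 77 of the 80 members tested had log2 fold changes of one sign in 6 of the 8. F1 dose 2 ovaries had 79 of 80 members lower than controls with a median of -0.64, against 0.02 over all genes. There 56 members (70%) had an unadjusted p under 0.05, against 12% of all genes. In edgeR 0% of all genes passed, and DESeq2 called 0 members, against 1.83% of all genes. In 55 members (68.8%) every dose 2 library was below every control, against 9.27% of all genes, and in 0 above, against 10.5%. The median was -0.65 for large and -0.63 for small subunit members.

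Rpl36 had the smallest p, with 163, 154 and 156 CPM in dose 2 ovaries, against 463, 190 and 218 CPM in controls (-0.93 ± 0.32, adjusted p = 0.411, edgeR). Control library A was far above the other libraries here, and the groups did not overlap. Rps27l followed at -0.65 and Rpl35a at -0.72. Control library A had 6.61% of its counts in the members, against 3.33% and 3.71% in libraries B and C, and was the highest of the 3 in 79 of 80 members. Without it the median was -0.20. Oocyte markers summed to 225 to 341 CPM in dose 2 ovaries and 351 to 458 CPM in controls, and the oviduct markers given above were high in 2 dose 2 libraries. Their part was not tested.

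F1 dose 1 ovaries had 79 of 80 members lower, with a median of -0.48, no member under an unadjusted p of 0.05 (5.26% of all genes were) and none called by DESeq2 (0.454% of all genes were). No gene at all passed (0%). In 5 members (6.25%) the dose 1 libraries were all lower, against 5.63% of all genes, and in 0 all higher, against 5.58%. Without control library A the median was -0.04. Rpl14 (-0.58), Rpl36 (-0.69) and Rpl12 (-0.58) had the smallest p (adjusted p = 0.726 each, edgeR). Dose 2 against dose 1 gave 80 of 80 members lower with a median of -0.15, again with 0 passing (0% of all genes), 0 at an unadjusted p under 0.05 (4.71%) and 0 by DESeq2 (1.56%). In 30 members (37.5%) dose 2 was wholly below dose 1, against 4.66% of all genes, and in 0 above, against 5.4%. Members rise and fall together between ovary libraries, so these counts are not independent observations. Rps27, Rpl34 and Rps29 had the smallest p.

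Set beside the testis, the difference between the dose 2 effects of the 2 organs in F1 was tested directly. No member of 81 passed (0.0147% of all genes did), 3 had an unadjusted p under 0.05 (3.7%, against 10.3% of all genes), and the smallest adjusted p was 0.417 (edgeR). DESeq2 called 0, against 1.71% of all genes. The median difference, testis minus ovary, was 0.17 on the log2 scale, and -0.29 without ovary control library A.

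F2 ovaries with a dose 2 father had 78 of 80 members higher than those with control parents, with a median of 0.45. No member passed, against 0.00573% of all genes, while 75 (93.8%) had an unadjusted p under 0.05, against 15.8% of all genes. DESeq2 called 39 (48.8%), against 2.12% of all genes. In 35 members (43.8%) every library was above every control library, against 13.3% of all genes, and in 0 below, against 7.73%. Rpl17 had 583, 764 and 823 CPM, against 471, 539 and 393 CPM with control parents, without overlap (0.60, adjusted p = 0.184, edgeR). Rps25 had 353, 483 and 487 CPM, against 300, 335 and 271 CPM (0.52). Rpl38 followed at 0.54. Library A of the group was the lowest of the 3 in 75 members, and without it 32 passed (40%), against 0.611% of all genes. Oocyte markers summed to 504 to 558 CPM in this group and 362 to 435 CPM with control parents.

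With 2 dose 2 parents 77 of 80 members were higher, with a median of 0.39. Again 0 passed, against 0.688% of all genes, while 70 (87.5%) had an unadjusted p under 0.05, against 24.5% of all genes. DESeq2 called 36 (45%), against 10.7% of all genes. In 35 members (43.8%) every library was above the controls, against 12.6% of all genes, and in 0 below, against 14%. Rpl41 had 860, 734 and 1075 CPM, against 512, 654 and 486 CPM, without overlap (0.71 ± 0.17, adjusted p = 0.0555, edgeR). Rps25 (0.49) and Rpl38 (0.51) followed at an adjusted p of 0.0572 each. Library B was the lowest of the 3 in 78 members, and without it 35 passed (43.8%), against 8.16% of all genes. Oocyte markers summed to 369 to 418 CPM, within reach of the 362 to 435 CPM of the controls.

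Lists of related genes had medians nearer to zero in these ovaries. The median log2 fold change was 0.24 for mitochondrial ribosomal protein genes, 0.25 for the other TOP class genes and -0.09 for ribosome biogenesis genes with 2 dose 2 parents. With a dose 2 father the same medians were 0.12, 0.24 and 0.00. In F1 dose 2 ovaries they were -0.40, -0.36 and -0.20. None of these genes passed in those 3 comparisons, and the differences between lists were not tested.

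The other 3 ovary comparisons had 0 members passing and 0% of all genes passing. Medians were 0.02 with a dose 1 mother, -0.11 with a dose 2 mother and 0.03 with a dose 1 father, with 2, 1 and 1 members under an unadjusted p of 0.05, against 9.2%, 5.83% and 9.63% of all genes. DESeq2 called 1 member, lower, in each, against 0.722%, 0.0802% and 0.476% of all genes. Without library C of the control parents these medians were -0.06, -0.20 and -0.05, and without library B 0.13, -0.00 and 0.15. In 1 member (1.25%) the libraries with a dose 1 father were wholly below the controls, against 8.18% of all genes, and in 0 wholly above, against 7.4%. With a dose 1 mother 0 members were apart in either direction, against 6.24% of all genes below and 7.21% above, and with a dose 2 mother 0, against 5.41% and 4.8%. Rpl26 had the smallest p in all 3 comparisons, at -1.41, -1.72 and -1.45 on the log2 scale (adjusted p = 0.326, 0.731 and 0.365, edgeR). Others with a small p, among members averaging at least 1 CPM, were Rpl30 (0.54) and Rps29 (0.21) with a dose 1 mother, Rpl12 with a dose 2 mother, and Rpl30 (0.49) and Rpl17 (0.18) with a dose 1 father.

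Rpl26, a large subunit protein near the tunnel exit that is also known to bind p53 mRNA, varied widely between libraries of some groups. Its spread within groups was not set against that between groups. Over all libraries its highest CPM was 5.30 times its lowest in testis and 5.62 times in ovary. In ovaries of offspring of 2 dose 2 parents it had 144, 128 and 61.4 CPM, against 199, 47.9 and 160 CPM with control parents. In F1 testes it had 36.0, 32.7 and 48.3 CPM in controls, 51.3, 113 and 34.9 CPM with dose 1 and 83.3, 60.3 and 27.5 CPM with dose 2. High and low libraries thus occurred in the same groups. Of its stretches of 100 bases 36.8% are shared with other transcripts.

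**Figure D5:**
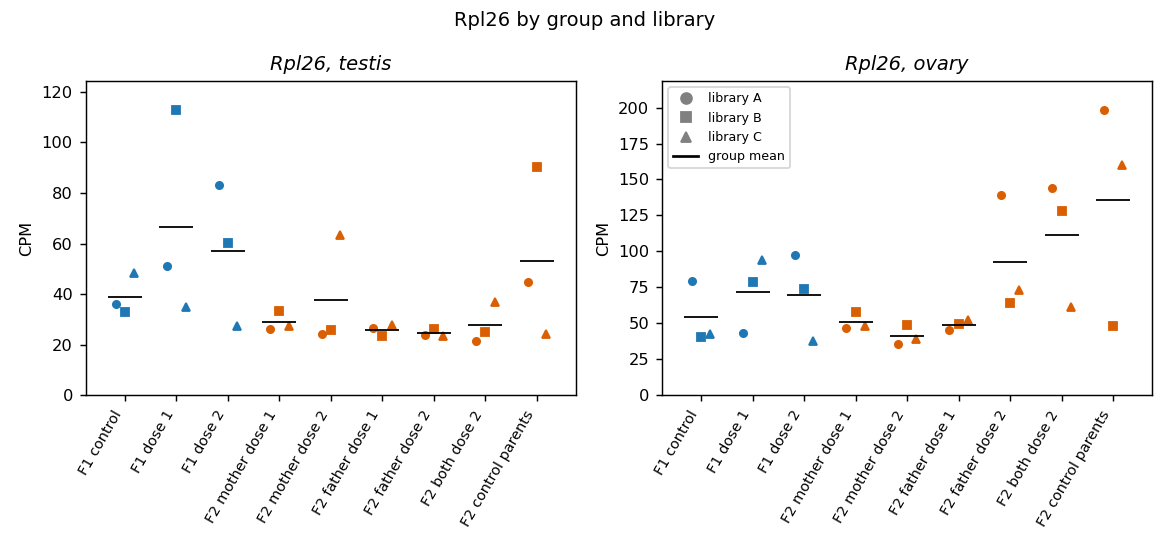
CPM of Rpl26 in each library (A, B and C by marker) with group means, in testis and ovary. Single libraries reach 113 CPM in testis (F1 dose 1 B) and 199 CPM in ovary (control parents A), while the lowest of the same groups are at 34.9 and 47.9 CPM.

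The paralogues, stalk genes, Rpsa and Rps27a, 15 members in all, gave 2 calls in F1 dose 2 testes, 2 with 2 dose 2 parents, 1 with a dose 2 mother and 1 with a dose 2 father. Of all genes 2.21%, 4.59%, 1.7% and 5.33% passed in these comparisons, in the same order. The F1 calls were Rps27l and Rpl39. Those in F2 were Rpl10 in each comparison, against the same controls, and Rps4x with 2 dose 2 parents. The calls among the 15 were not tested against the shares of all genes. In the other 4 testis comparisons the log2 fold changes of the 15 ran from -0.97 (Rps27l, F1 dose 2 against dose 1) to 0.61 (Rpl3l, the same comparison). In the ovary comparisons 14 of the 15 were tested, 0 passed, and values ran from -1.13 (Rps4l, F1 dose 2) to 0.53 (Rplp1, 2 dose 2 parents). Rpl10l in ovary, at -0.44 to -1.03 in 4 of the F2 comparisons, had levels under 1 CPM.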

How the data were processed

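Per the labels' protocols, total RNA was extracted with TRIZOL and sequenced as stranded mRNA libraries with reads of 100 nt. Per the submitters' processing notes, the build was mm39 and the tools were featureCounts 2.0.3, DESeq2 1.32.0, SAMtools 1.13, TopHat2 2.1.1, Bowtie2 2.4.5, FastQC 1.19 and bcl2fastq 2.20. The annotation and the strand setting were not given in these sources, and reads of overlapping or near-identical genes could be split or lost. The authors deposited 2 tables of raw counts per gene, unnormalized, 27 libraries each; 133 entries carry no gene ID. The naming rule of the members uses symbols only, but it and the lists were chosen with earlier results of these data known.

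CPM is the count over the library total. Genes were tested on the counts with edgeR 4.0.16 (TMM scaling, filterByExpr with a minimum count of 10, robust quasi-likelihood test, limma 3.58.1, R 4.3.3), with p-values adjusted by Benjamini-Hochberg over all genes tested and a threshold of 0.05. Each fit held all F1 libraries (9) or all F2 libraries (18) of a tissue; testis against ovary had generation as a covariate. Of the 82 members 81 passed the filter in F1 testes, 82 in F2 testes and 80 in ovaries, where Rpl32l and Rpl3l did not. A fitted log2 fold change, from the deposited counts, is the group named first over the second. The fits were tested on simulated data. Within each group, no pair of libraries agreed within sampling noise (lowest chi-square per gene 3.17).

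Named genes were all members passing a test, the 3 with the smallest p among those averaging at least 1 CPM where none passed, the 10 largest changes between tissues, the 5 highest and lowest levels, and the paralogue pairs, stalk genes, Rpsa and Rps27a. Some members that this rule names are not reported here. Other genes singled out were chosen after their values were seen. Alternatives were RLE scaling, no filter, DESeq2 1.42.0, a replicate block, other sets of libraries in the fit and leaving out each library; 1, leaving out testis F1 control C and dose 1 A together, was chosen after seeing the data. Letters A, B and C deviated together (correlation over 0.1 in every pair) in 2 ovary comparisons, F1 dose 1 against control (0.205, 0.211 and 0.375) and dose 1 mother against control parents (0.226, 0.278 and 0.104). Sequences came from RefSeq and GENCODE tables of GRCm38; no coordinate was converted.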

Additional observations from a re-analysis of the deposited data

Results flagged for a closer look

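Some members had every library on one side of the controls in testis and on the other side in ovary. With a dose 2 father, 10 members (among them Rpl10, Rpl21, Rpl32, Rpl37, Rpl5, Rps10, Rps23, Rps28 and Rps6) were lower than with control parents in every testis library and higher in every ovary library. This is 12.5% of the 80 members tested in both tissues, against 2.21% of the 16084 genes tested in both. With 2 dose 2 parents it held for 1 member (1.25%, against 1.87% of genes), Rps6, a target of the S6 kinases, which had 102, 107 and 108 CPM in testis, against 114, 118 and 127 CPM with control parents, and 656, 564 and 672 CPM in ovary, against 515, 559 and 423 CPM. The difference between the tissues was not tested, and neither Rps6 comparison passed the threshold.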

How the results depend on the processing

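No member's direction among the called genes reversed under the alternatives run. Of the fold changes of named genes, 1926 kept their direction and side of the threshold, 57 lost a call and 22 gained one. The number of members passing changed as follows, and the cause was not tested. Where the share of all genes passing in the same fit is not given above, the number was not set against the background. Such a number alone does not show whether the members stand out from all genes. With DESeq2 it was 35 in F1 testes of dose 2 against control, 18 of dose 2 against dose 1, 1 with a dose 1 mother, 5 with a dose 2 mother and 5 with a dose 2 father, and in ovary 1 with a dose 1 mother, 1 with a dose 2 mother, 1 with a dose 1 father, 39 with a dose 2 father and 36 with 2 dose 2 parents. With all 27 libraries of a tissue in the fit it was 25 and 13 in those F1 testis comparisons, 1 with a dose 2 father, 2 with 2 dose 2 parents and 1 in F1 dose 2 ovaries. With only the 6 libraries compared it was 37 in F1 dose 2 testes, 2 with a dose 1 mother, 1 with a dose 1 father and 0 with 2 dose 2 parents. RLE scaling and no filter each gave 1 with a dose 2 father and 2 with 2 dose 2 parents. With the replicate block it was 2 in testes with 2 dose 2 parents, where the letters did not deviate together. In the 2 ovary comparisons where they did, the block changed no call among members. Nothing in the labels says that the letters pair samples of different groups. Without testis F1 control C and dose 1 A together, 25 members passed for dose 2, 2 for dose 1 and 3 between the doses.

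Leaving out 1 library at a time gave 0 to 1 members in F1 dose 2 testes, 0 to 2 for dose 1, 0 to 6 with a dose 2 mother, 0 to 1 with a dose 1 father, 0 to 7 with a dose 2 father and 1 to 8 with 2 dose 2 parents. In ovary it gave 0 to 32 with a dose 2 father and 0 to 35 with 2 dose 2 parents. Here too, a count without a share of all genes given above was not set against the background. Medians ran from -0.67 to -0.038 (F1 dose 1 ovaries), -0.83 to -0.20 (F1 dose 2 ovaries), -0.19 to -0.13 (testis, dose 2 father), -0.19 to 0.19 (testis, 2 dose 2 parents), -0.29 to 0.36 (testis minus ovary effect) and -1.45 to -1.05 (testis against ovary). For testis against ovary the median was -1.08 with RLE scaling and -1.08 with DESeq2, where the median of all genes was 0.27 in each. Few counts limit Rpl32l, Rpl3l, Rps27 and, in ovary, Rpl10l and Rpl39l.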
